A study of Mus musculus with 6 samples.

Results

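ATF3 occupancy in HDL-treated macrophages was compared between wild-type (WT, Atf3 +/+) and knockout (KO, Atf3 -/-) cells, peak by peak. The peaks are those of the standard list, called on the WT library, and of the KOIN-corrected list, called against the KO library, for the cells given HDL without CpG. They number 5319 and 3044, together 8363 of the 16759 peaks listed for all conditions. The cells were bone marrow-derived macrophages of C57BL/6 background, grown in M-CSF at 40 ng/ml from marrow of mice aged 6 to 8 weeks, and both genotypes received HDL at 2 mg/ml for 6 h. The KO cells came from ATF3-deficient mice and thus lacked ATF3 also before HDL was added. For the immunoprecipitation 2.5 µg of a polyclonal rabbit antibody to ATF3 was used, and the sequenced fragments measured 150 to 250 bp. According to the labels there were 3 biological replicates, which the authors pooled, so that each genotype is 1 library, with 37930363 WT and 66061648 KO reads. No replicate check is therefore possible, and each test below compares these 2 libraries, not the genotypes. The intervals of WT/KO cover counting error only. Those of shares treat the peaks as independent, although all peaks share the 2 libraries. The unstimulated cells and the cells given HDL and then CpG at 100 nM for 4 h, each again with 1 WT and 1 KO library, enter only where the same sites were compared. In these libraries 37137377 to 75534584 reads were counted.

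ATF3 is a basic leucine zipper factor that is induced by many kinds of stress and that binds DNA as a homodimer or together with other leucine zipper proteins, such as members of the JUN, C/EBP and CREB families. Such dimers recognise AP-1 sequences, CRE sequences and, in dimers of ATF and C/EBP proteins, composite sites known from amino acid response genes. In macrophages ATF3 is known as a factor that dampens inflammatory gene expression. HDL is a lipoprotein known for carrying cholesterol away from cells. In KO cells the antibody should find no ATF3, so the KO library measures what the same antibody and protocol recover without it.

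Some sites of named peaks are shown here as they stand in the genome (NCBIM37, which is mm9), with the recognised sequence in capitals and read on the strand that spells it. AP-1 stands for TGAGTCA, CRE for TGACGTCA and CARE, the composite C/EBP-ATF site, for TGATGCAA. Each is the match nearest to the centre of a named peak, within 100 bp. They are a selection of such sites, made with their ratios known, and do not represent the ratios of the rest. The Mtfr2 site (chr10:20225500-20225557, + strand), named for the nearest start site 158 kb away, lies in intron 2 of 12 of another gene, Pde7b. The C9 site (chr15:6442585-6442641, - strand) lies in intron 9 of 10 of its gene and the Cd36 site (chr5:17385915-17385971, + strand) in intron 1 of 15. The Nabp1 (chr1:51562700-51562756, - strand), Socs1 (chr16:10754812-10754868, - strand) and Spp1 (chr5:104825523-104825580, + strand) sites are intergenic, 27.5 kb upstream, 30.8 kb downstream and 38.5 kb upstream of the start site. The Aars (chr8:113557605-113557662, - strand), Ppp1r15b (chr1:135027658-135027715, + strand) and Ddit3 (chr10:126727582-126727638, - strand) sites are in promoters.
Mtfr2, CRE: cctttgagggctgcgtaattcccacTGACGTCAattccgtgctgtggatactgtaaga
C9, AP-1: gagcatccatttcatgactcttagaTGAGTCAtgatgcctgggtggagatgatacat
Nabp1, AP-1: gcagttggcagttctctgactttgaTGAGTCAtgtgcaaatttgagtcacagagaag
Socs1, AP-1: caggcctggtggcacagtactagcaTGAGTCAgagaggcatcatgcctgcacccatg
Cd36, AP-1: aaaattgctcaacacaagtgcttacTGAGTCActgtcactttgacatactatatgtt
Ddit3, AP-1: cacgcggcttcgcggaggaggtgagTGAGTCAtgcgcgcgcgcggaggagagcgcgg
Spp1, CARE: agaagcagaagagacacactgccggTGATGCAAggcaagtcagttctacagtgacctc
Aars, CARE: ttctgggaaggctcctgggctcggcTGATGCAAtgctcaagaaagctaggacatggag
Ppp1r15b, CARE: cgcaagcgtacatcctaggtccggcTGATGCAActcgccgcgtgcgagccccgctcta

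Another large group of peaks sat on simple repeats, where these sequences were rare. The highest-scoring example on a TC repeat with a WT/KO of at least 2 is shown, as the 61 bases around the peak centre on the + strand, in an intron of Qpct (chr17:79487555-79487615).
Qpct, TC repeat: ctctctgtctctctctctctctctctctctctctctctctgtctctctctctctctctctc

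Most ATF3 peaks of HDL-treated macrophages held more tags in the WT than in the KO library, and none was free of KO reads. The median standard peak held 11.3 normalized tags in WT and 4.84 in KO cells, which are 43 and 32 reads, since tags are scaled to 10000000 per library and 1 read counts as 0.264 tags in WT and 0.151 in KO. The ratio of these tags, WT/KO, had a median of 2.41, with an interquartile range of 1.79 to 3.12 and a full range of 0.545 to 38.3. It was at least 2 in 3544 of 5319 standard peaks (66.6%), and 211 peaks (3.97%) reached 5. The KO count was 0 in 0 peaks. Tested on reads (exact binomial, Benjamini-Hochberg adjusted), 4230 peaks (79.5%) had more WT reads and 48 (0.902%) more KO reads at an adjusted p under 0.05. The list was called on the WT library, so a site high only in the KO library could not enter it. The 2 counts are therefore not an even contrast of the libraries. Of the peaks with more WT reads, 687 had a WT/KO under 2. Around the threshold of 2 the nearest peaks stood at 1.9997 and 2.001, so the counts at this threshold divide a continuous distribution. The ratio had little rank correlation with the height of a peak. Across peaks it was 0.06 with the WT reads and 0.01 with the MACS score, a description over 5319 peaks that share 2 libraries. The spread did differ. Peaks with a score of at least 200 had a lower quartile of 1.05, and 21 of 309 had more KO reads. At scores from 40 to 60 the lower quartile was 1.77, and 10 of 2817 peaks had more KO reads. All counts of peaks with more WT or KO reads depend on the scaling of the libraries. With a scaling that sets satellite and simple repeat peaks together to a median WT/KO of 1, 366 peaks had more WT and 734 more KO reads, and with satellites alone, 4282 and 40.

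What a peak sat on separated the ratios. Peaks with no annotated repeat at the centre, 2817 in all, had a median WT/KO of 2.57, and 73.7% of them reached 2. The 1177 peaks on simple repeats stood almost as high, at 2.42 and 72.5%. LTR elements (457 peaks) had a median of 1.80 and 42.9% at 2 or more, and LINE elements (399 peaks) 1.64 and 37.1%, while the 249 peaks on SINEs, at 2.41, resembled the whole list. Ribosomal RNA repeats had a median of 1.43 over 52 peaks. The 24 satellite peaks stood at 0.981, with 2 of them at 2 or more. Satellites, which make up much of the pericentromeric DNA, thus held as many normalized tags in KO as in WT cells, whereas simple repeats did not. Since the reads were placed at their best position when they matched several, a ratio on a repeat is summed over copies that cannot be told apart.

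**Figure D1:**
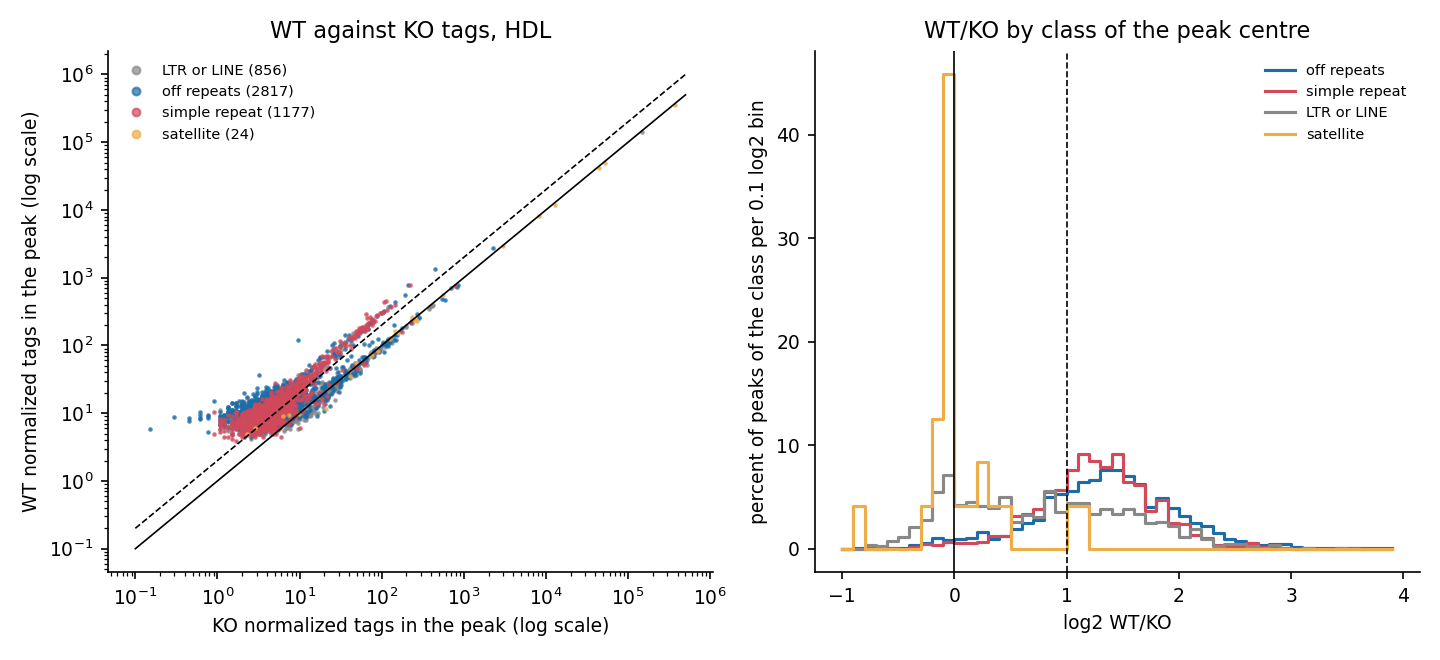
WT against KO normalized tags of standard peaks with HDL on log axes (left; 1 point per peak, solid line WT/KO of 1, dashed line 2) and the distribution of log2 WT/KO in percent of peaks per 0.1 bin (right; the few values above 4 are not drawn) for peaks off repeats (2817), on simple repeats (1177), on LTR or LINE elements (856) and on satellites (24). Peaks off repeats and on simple repeats centre above the dashed line, at medians of 2.57 and 2.42, while the satellite peaks lie along the line of equal tags at 0.981.

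Among the simple repeats, the kinds of unit differed little, apart from the telomere type. Repeats of GA or TC units, 609 peaks, had a median WT/KO of 2.37 and 70.8% at 2 or more, and repeats of CA or TG units, 251 peaks, 2.32 and 71.7%. Of the 86 peaks on TTAGGG or CCCTAA units, 85 reached 2, at a median of 2.95 (interquartile range 2.76 to 3.13), while the other kinds of unit had quartiles between 1.78 and 2.94. A peak on such a repeat inside chromosome 2, 369 kb upstream of Galnt5, held 773 WT and 223 KO tags, or 2932 and 1475 reads, a WT/KO of 3.46 (3.25 to 3.69). At the TC repeat in Qpct, which encodes an enzyme that forms pyroglutamate at protein ends, 164 WT and 48.7 KO tags were counted, with a WT/KO of 3.37 (2.94 to 3.87).

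AP-1 was more frequent in off-repeat peaks with a higher WT/KO and rare in simple repeats at every ratio. TGAGTCA, or TGACTCA on the other strand, stood within 100 bp of the centre in 872 of 5319 peaks (16.4%), against 3.52% of windows of the same 201 bp moved by 1000 bp and 3.12% of the 12714857 windows that tile the genome. At a WT/KO of 2 or more the share was 20.1% (18.8 to 21.5) and below 2 it was 8.96% (7.72 to 10.4), a difference of 11.2 percentage points (9.25 to 13.0). Off repeats, AP-1 occurred in 0 of 87 peaks with more KO than WT tags, a Wilson interval of up to 4.23%. There it rose to 12.6% at a WT/KO of 1 to 1.5, 21.9% at 1.5 to 2, 27.6% at 2 to 3 and 31.3% at 3 to 4, and it was 28.8% and 27.2% in the highest classes, whose intervals overlap that of 3 to 4. LTR and LINE peaks behaved in the same manner. Of the 196 LTR peaks at 2 or more, 22.4% held AP-1, and of the 261 below 2, 4.21%. For LINE peaks these shares were 15.5% and 2.79%. On simple repeats, 8 of 853 peaks at 2 or more (0.938%) and 3 of 324 below 2 (0.926%) held it, both lower than the 3.06% of the shifted windows. In the other direction, off-repeat peaks with AP-1 had a median WT/KO of 2.75 (721 peaks) and those without it 2.52 (2096 peaks).

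**Figure D2:**
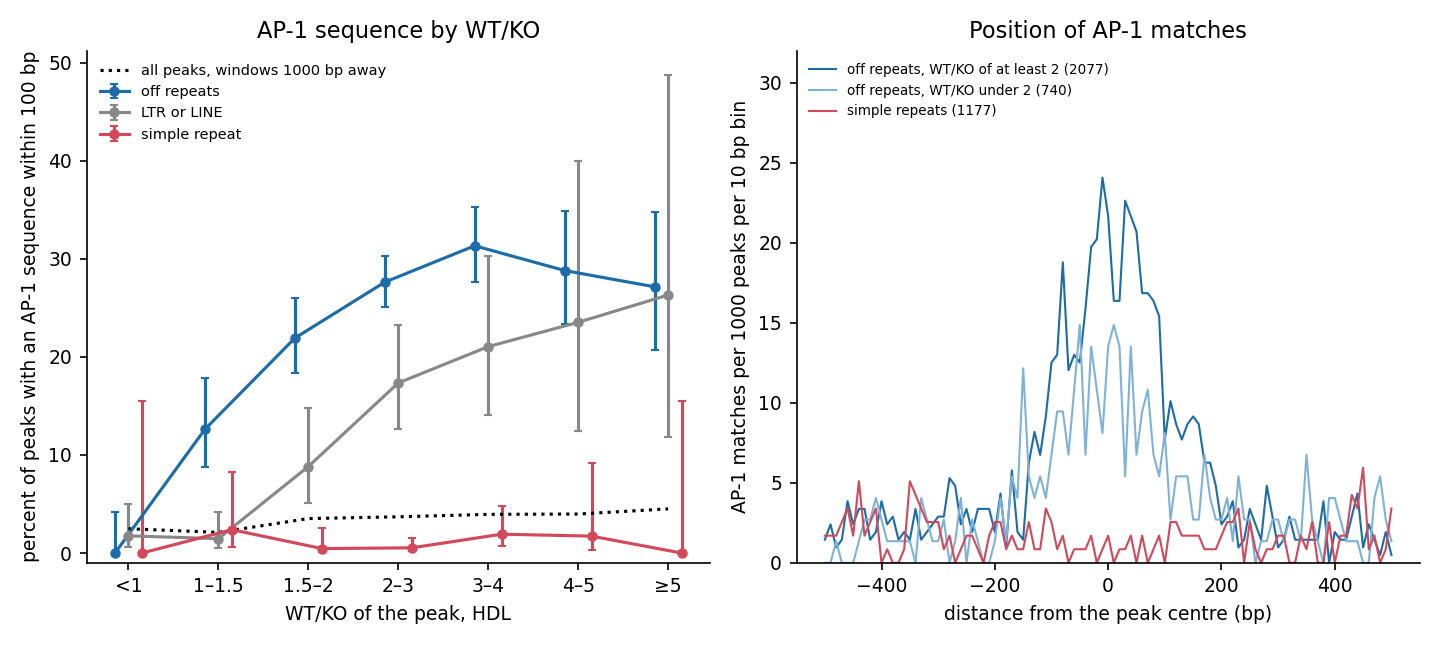
Percent of standard peaks with an AP-1 sequence within 100 bp of the centre, by WT/KO (left; bars are Wilson 95% intervals, dotted line all peaks in windows 1000 bp away), and AP-1 matches per 1000 peaks in 10 bp bins around the centre (right). Off repeats the share rises from 0% below a WT/KO of 1 to 31.3% at 3 to 4 and matches gather around the centre, while simple repeats reach at most 2.38%.

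Other sequences were rarer but also lay above their surroundings. CARE occurred in 3.03% of peaks against 0.63% of shifted windows, CRE in 0.696% against 0.122%, and the PU.1 sequence GAGGAAGT, of the factor that defines the macrophage lineage, in 4.36% against 1.203%. A CRE was found in 1.25% of the off-repeat peaks at a WT/KO of 2 or more and in 0.676% of those below, with overlapping intervals (0.856 to 1.83 and 0.289 to 1.57), so that no difference was detectable at this number. The CARE shares off repeats were likewise close, 4.72% and 4.32%. The MAF-type sequence GCTGAGTCA, which contains AP-1, was seen in 1.86% of peaks against 0.197%. The CLEAR box TCACGTGA of lysosomal genes occurred in 0.263% (14 peaks) against 0.113%. The C/EBP palindrome TTGCGCAA stood at 0.188% against 0.0094%, but in only 10 of 5319 peaks and almost no shifted windows, too few to size the excess. The NF-kB sequence GGAATTTCC stood at 0.226% in peaks and at 0.226% beside them.

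Promoter peaks reached a WT/KO of 2 more often than intergenic peaks and carried CRE and CARE more often. Of 267 promoter peaks 201 (75.3%, 69.8 to 80.1) had a WT/KO of at least 2, of 1901 intronic peaks 72.3% and of 3036 intergenic peaks 62.3%, at medians of 2.65, 2.52 and 2.32. The difference between promoters and intergenic sites was 13.0 percentage points (7.20 to 18.1). It was 9.71 (-7.06 to 21.9) among peaks with a score of at least 100, an interval that includes 0, and 2.36 (-0.198 to 6.08) when satellite and simple repeat peaks together were scaled to a median of 1. With distance from the nearest start site the median fell from 2.61 within 1 kb to 2.45 at 1 to 10 kb and at 10 to 100 kb, 2.30 at 100 to 500 kb and 1.90 beyond 500 kb. CRE was present in 15 of the 267 promoter peaks (5.62%) and CARE in 24 (8.99%), against 1.93% and 0.501% of the windows of the same length at 22339 annotated starts of protein-coding genes. In intergenic peaks they occurred in 0.329% and 2.37%. AP-1 was found in 35 promoter peaks (13.1%). Of the 15 promoter peaks with a CRE, 86.7% reached a WT/KO of 2, and of the 24 with a CARE 62.5%, both small groups beside the 75.3% of all promoter peaks.

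Among promoter peaks with a WT/KO of at least 2, the highest score belonged to a bitter taste receptor gene, and the 10 highest included Fosb, Herpud1 and Ppp1r15b. The Tas2r134 peak, 0.821 kb upstream of the start of a taste receptor gene, held 107 WT and 26.3 KO tags (WT/KO 4.06, 3.39 to 4.88). At Fosb, an immediate early AP-1 gene, 23.2 and 5.0 tags gave 4.64 (3.08 to 7.16). Herpud1, which acts in the disposal of misfolded proteins of the endoplasmic reticulum, had 24.8 and 8.17 tags and a WT/KO of 3.03 (2.15 to 4.32). A WT/KO of at least 2 was the condition for this group. Of the 10, only the Fosb and Herpud1 peaks had a counterpart in the KOIN-corrected list. Tas2r134, Ppp1r15b and the other members had none, whereas 2919 of all 3544 standard peaks at 2 or more had one. The intervals of these 3 peaks had lower bounds above 2, as had that of D16Ertd472e (2.01), while those of the other members reached below 2. Ppp1r15b, the constitutive subunit of the phosphatase that reverses phosphorylation of the translation factor eIF2, had the CARE shown above 40 bp from the centre, with 20.3 WT and 7.42 KO tags and a WT/KO of 2.74 (1.89 to 4.00). At Ifitm6, of the interferon-induced transmembrane family, 14.8 and 5.90 tags were counted, a WT/KO of 2.50 (1.63 to 3.87). The Rtn4 peak, at the gene of a protein that shapes the endoplasmic reticulum, had 21.1 and 9.69 tags and the lowest ratio of the 10, 2.18 (1.55 to 3.07). The other members, D16Ertd472e, 2410006H16Rik, Gpr141 and Hist1h4h, lay between 2.73 and 2.92.

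Atf3, the targeted gene, had 5 standard peaks on chromosome 1, and in each the KO library still held reads. Tags over Atf3 do not measure its expression, so they do not check the genotype, and the deleted part of the gene is not marked in these lists. The promoter peak (chr1:193006784-193007835, 0.097 kb upstream) held 21.9 WT and 12.1 KO tags, from 83 and 80 reads, a WT/KO of 1.81 (1.31 to 2.49), and it was not in the KOIN-corrected list. It has a CARE within 100 bp of its centre. Upstream, ratios were higher. A peak 41.1 kb away, with AP-1, held 17.7 and 4.09 tags and a WT/KO of 4.32 (2.73 to 7.03). Those 47.3 and 65.3 kb away stood at 3.18 and 3.19, and a peak 18 kb away with another CARE at 2.14 (1.44 to 3.20). All 5 had more WT reads by the exact binomial test.

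Most peaks best separated between the 2 libraries were not promoter peaks, which were also few in the whole list (267 of 5319). The best separated peaks were ranked by the lower bound of the WT/KO interval among 4039 peaks off satellites, simple repeats and low complexity, so their ratios are given without a test. The first was an intergenic peak 251 kb upstream of Fat1, which encodes an atypical cadherin. It held 121.27 WT and 9.69 KO tags, from 460 and 64 reads, a WT/KO of 12.5 (9.62 to 16.5), without an AP-1, CRE or CARE sequence near its centre. No other member of this group had more than 139 WT reads. The peak assigned to Mtfr2, a gene of mitochondrial fission, with the CRE shown above held 8.70 WT and 0.30 KO tags, from 33 and 2 reads, a ratio of 28.7 (7.35 to 247). C9, a component of the membrane attack complex of complement, had 57 WT and 6 KO reads at its AP-1 site (16.5, 7.15 to 47.0). The largest ratio of all, 38.3 (6.19 to 1581), was that of a peak in intron 1 of Mfsd12, a transporter of lysosome-related organelles, and rests on 22 WT reads and 1 KO read. AP-1 sites were also found in the peaks of Phactr2 (15.7), Nabp1 (16.8) and Rab11a (9.45), the last in an intron of Megf11 but nearest to the start of a small GTPase of recycling endosomes, with 76 and 14 reads. Cenpw, Samsn1, Adcy9 and Ppargc1b, a coactivator of oxidative metabolism, had ratios of 12.5 to 18.6 with 3 to 5 KO reads each and none of the 3 sequences.

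The peaks with the most tags behaved differently. Of the 10 highest, 6 were satellites and another the LINE peak beside the largest of them near Lrrc4c, which held 359992 WT and 370004 KO tags. Over these 7 the WT/KO ran from 0.934 to 0.998. The peak on the ribosomal RNA gene Rn45s, with 2781 WT and 2252 KO tags, had a ratio of 1.23 (1.204 to 1.27). The remaining members were an intergenic peak 110 kb from G530011O06Rik on chromosome X, with 1360 and 451 tags and a WT/KO of 3.01 (2.88 to 3.15), and a peak 18.8 kb upstream of Chst2, a carbohydrate sulfotransferase, with 785 and 206 tags and 3.80 (3.56 to 4.06). Both are in the KOIN-corrected list. Among these 10, the peaks off satellites, LINE and ribosomal DNA were thus higher in WT, but the ranking by WT tags favours such peaks. The tall peak near B020014A21Rik, also off repeats, held 476 WT and 592 KO tags.

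Peaks with more KO reads were mostly intergenic and nearly all without AP-1. Of the 48, 40 were intergenic, 17 on LTR or LINE elements, 9 on chromosome X and 7 on satellites, and 1 held an AP-1 sequence. Of all 5319 standard peaks, 3036 were intergenic, 457 on LTR and 399 on LINE elements, 209 on chromosome X and 24 on satellites. AP-1 was held by 872 of them (16.4%). The ratios of the 48 ran from 0.545 to 0.973. The clearest were intergenic peaks near Rpp21 (12.7 WT and 23.2 KO tags, WT/KO 0.546, 0.387 to 0.760), Vmn2r121 (0.547, 0.381 to 0.773) and Tmem132b (0.545, 0.374 to 0.779). Lmbrd1 (0.587), Galr1 (0.553), Fbxw4 (0.715), B020014A21Rik (0.805) and Neto1 (0.705) had the next lowest upper bounds. B020014A21Rik rested on 1807 WT and 3911 KO reads.

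On chromosome X as a whole, 57 of 209 peaks (27.3%) had a WT/KO of at least 2, at a median of 1.13, whereas the medians of the autosomes ran from 2.29 to 2.57. A block from 120 to 125 Mb, chosen after its values were seen, held 83 of the peaks, with a median width of 2298 bp against 763 bp in all peaks. In this block 0 of 83 reached 2, at a median of 0.951. By nearest gene, 43 of the 83 belonged to vomeronasal receptors, and 50 were on LTR or LINE elements. Outside it, the 126 peaks of chromosome X had a median of 1.83 and 45.2% at 2 or more. The 30 peaks on chromosome Y had a median of 1.09.

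At the other end of chromosome X, the peaks nearest to G530011O06Rik varied over short distances. The promoter peak held 36.7 WT and 3.18 KO tags, from 139 and 21 reads, a WT/KO of 11.5 (7.25 to 19.2). Peaks 7.55, 10.7, 13.8 and 16.2 kb upstream had 232 to 474 WT reads but ratios of 1.65, 1.45, 1.38 and 1.14. In the KOIN-corrected list, 3 more peaks nearest to this gene that had no counterpart in the standard list stood at 5.22, 5.35 and 9.21.

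Peaks were then assigned to genes of 18 lists by a start site within 100 kb. Of all 3891 peaks so placed, 69.6% had a WT/KO of at least 2, 82.9% had more WT reads and the median was 2.46, and the lists are read against these values. A list's genes without a peak give no ratio and are not counted. The placed peaks belong to 3198 genes, and their share of all genes was not computed. Numbers of genes with a peak are therefore not read as high or low. Most lists hold few peaks, and whether a list differs from all placed peaks was not tested.

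Macrophage transcription factor genes had a median above that of all placed peaks, and AP-1 family genes one below it. Of 39 macrophage transcription factors, 20 had a peak, and 26 of their 33 peaks (78.8%) reached 2, at a median of 2.71. Klf13, of the Krüppel-like family, had the highest score, with 25.6 WT and 6.36 KO tags at an AP-1 sequence 73.0 kb upstream (WT/KO 4.02, 2.77 to 5.92). Runx1, needed for blood cell formation, came next with 22.4 and 5.30 tags at an LTR 41.3 kb upstream (4.23, 2.82 to 6.46). Klf4, on a simple repeat, and Mef2c, off repeats, both myeloid regulators, stood at 1.81 (1.30 to 2.53) and 3.06 (2.01 to 4.71). Among AP-1 family genes 5 of 11 had a peak, and 6 of 10 peaks reached 2, at a median of 2.13. Fosb is described above. Jun and Fos encode subunits of AP-1 itself. The highest-scoring peak of Jun, on a simple repeat 35.1 kb downstream, had 17.7 WT and 11.2 KO tags (1.58, 1.12 to 2.22), while its promoter peak stood at 2.28 (1.52 to 3.44) and a simple repeat 53.6 kb upstream at 3.13 (1.77 to 5.72). For Fos the highest-scoring peak, 18.4 kb upstream, had 15.3 and 9.39 tags (1.63, 1.12 to 2.37), the promoter peak 1.83 (1.15 to 2.94), and the peaks 45.8 and 50.02 kb downstream 2.04 (1.32 to 3.17) and 3.87 (2.17 to 7.17). Batf3, of dendritic cell development, stood at 1.30 (0.813 to 2.05), which did not pass the test.

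The ATF, CREB and CHOP genes had a median of 2.01 over 7 peaks, 4 of which reached 2. The promoter of Ddit3, which encodes CHOP, a stress-induced partner of C/EBP proteins, held 15.3 WT and 10.8 KO tags around the AP-1 sequence shown above and a CARE, a WT/KO of 1.42 (0.988 to 2.04), not past the threshold (adjusted p = 0.066, exact binomial test). Crem, a CRE-binding modulator with a CRE near its peak centre, stood at 3.68 (2.27 to 6.12), and Creb5 at 2.01 (1.33 to 3.05). The MAF, BACH, C/EBP and NFIL3 list had a median of 2.90, with 6 of 7 peaks at 2 or more. Bach1, a repressor of antioxidant genes, had 12.7 WT and 3.63 KO tags with AP-1 at the centre of the peak (3.48, 2.09 to 5.95). Nfe2l2, the gene of NRF2, had 15.03 and 6.36 (2.36, 1.56 to 3.61), and Cebpa, a C/EBP factor of myeloid cells, 15.6 and 3.94 (3.95, 2.45 to 6.53).

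Genes of lipid and cholesterol handling, the process to which HDL belongs, had a median above that of all placed peaks. Of 41 genes 15 had a peak, 18 of 22 peaks (81.8%) reached 2 and 21 had more WT reads, at a median of 2.86. This was not particular to the list. Cell cycle, p53 and survival genes also had 18 of 22, and 2 smaller lists had medians of 2.90 (MAF, BACH, C/EBP and NFIL3) and 2.88 (endoplasmic reticulum and integrated stress). Nceh1, which hydrolyses cholesteryl esters, held 21.6 WT and 7.72 KO tags at an intronic AP-1 sequence (2.80, 1.95 to 4.05). At Abcg1, which exports cholesterol to HDL, 12.9 and 4.39 tags were found 19.1 kb upstream (2.94, 1.82 to 4.83). Cd36, a scavenger receptor for oxidised lipoproteins, had 17.9 and 5.90 tags at the site shown (3.04, 2.02 to 4.62), and 2 further peaks, of which the one 8.90 kb upstream had 1.29 (0.875 to 1.90) and did not pass the test. The Acsl1 peak named for its score, on a simple repeat, had 1.70 (1.05 to 2.74). That of Lrp1, a receptor of lipoproteins and proteases, had 1.92 (1.36 to 2.71).

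Inflammatory genes had medians close to that of all placed peaks, with higher values at single sites. For cytokines, chemokines and effectors 21 of 28 peaks (75%) reached 2, at a median of 2.43. The Ifnb1 peak, 14.8 kb upstream of the gene of interferon beta, held 21.1 WT and 5.30 KO tags (3.98, 2.64 to 6.10). Spp1, the gene of osteopontin, had 15.03 and 1.82 tags at its CARE (8.27, 4.39 to 16.9), the highest ratio among the genes named from the lists. Il1b, of interleukin 1 beta, had 14.0 and 6.66 at AP-1 (2.10, 1.38 to 3.20), and Vegfa 50.4 and 18.2 on a simple repeat (2.77, 2.19 to 3.51). The Il12b peak, on a simple repeat 56.5 kb upstream, stood at 1.68 (0.964 to 2.93) and did not pass the test. In the Toll-like receptor and NF-kB list 19 of 24 peaks (79.2%) reached 2, at a median of 2.48. Its highest-scoring peaks had Socs1, Nfkbiz and Dusp1 as nearest genes. Socs1, which blocks cytokine signalling, had 21.9 and 3.94 tags at the site shown (5.56, 3.54 to 9.002). Nfkbiz, of an atypical IkB protein, had 25.8 and 6.21 at a peak 67.6 kb downstream (4.16, 2.86 to 6.15). Dusp1, a phosphatase of MAP kinases, had 22.1 and 6.51 (3.40, 2.33 to 5.03). Tlr3, the receptor of double-stranded RNA, stood at 1.63 (1.05 to 2.52).

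Macrophage identity and receptor genes included peaks without a WT excess. Of 41 peaks 26 (63.4%) reached 2, at a median of 2.42. The highest score was that of a peak on an LTR 19.7 kb upstream of Ccr2, the chemokine receptor of inflammatory monocytes, with 26.1 WT and 28.2 KO tags (0.927, 0.719 to 1.19). Another LTR near Csf2ra gave 1.28 (0.993 to 1.65). The Cd9 and Sirpa peaks, of a tetraspanin and of an inhibitory receptor, were also on repeats, an LTR and a LINE element. They stood at 2.75 (1.98 to 3.85) and 3.25 (2.05 to 5.25). For integrins and adhesion 16 of 24 peaks (66.7%) reached 2, at 2.57. Itga4, on an LTR, stood at 3.96 (2.35 to 6.86) and Itgb5, off repeats, at 1.84 (1.24 to 2.74).

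The stress lists held 7 and 11 peaks, and the genes named for the endoplasmic reticulum had theirs near the start site. Of 30 genes of endoplasmic reticulum and integrated stress, 7 had a peak, and 6 of the 7 reached 2, at a median of 2.88, the exception being Ddit3. Trib3, a pseudokinase induced through ATF4, had 21.9 WT and 5.15 KO tags 0.162 kb from its start (4.25, 2.82 to 6.54). Aars, of the alanyl-tRNA synthetase, had 14.8 and 3.63 at the CARE shown (4.06, 2.48 to 6.86), and Chac1, which degrades glutathione, 11.6 and 4.09 (2.84, 1.72 to 4.77). Oxidative stress and NRF2 targets had 7 of 11 peaks at 2 or more and a median of 2.44. The promoter of Slc7a11, the cystine importer, held 18.4 and 7.11 tags with a CARE (2.59, 1.77 to 3.84), and Mt1, a metallothionein, 12.4 and 8.02 (1.54, 1.02 to 2.33). For lysosome and autophagy genes 11 of 20 peaks (55.0%) reached 2, at a median of 2.18. In the cell cycle, p53 and survival list 18 of 22 peaks (81.8%) did, at 2.41, led by a simple repeat near Ccng2 with 219 WT and 77.7 KO tags (2.82, 2.52 to 3.15) and an AP-1 site near Mcl1, a survival protein of the BCL2 family, with 35.6 and 14.4 (2.47, 1.89 to 3.25). Solute carriers, at 51 of 70 peaks (72.9%) and 2.46, were close to all placed peaks, with Slc25a33, a mitochondrial nucleotide carrier, at 103 and 24.7 tags (4.18, 3.47 to 5.05) and Slc6a6, the taurine transporter, at 28.2 and 7.11 at an AP-1 sequence (3.97, 2.79 to 5.71).

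Genes of other tissues served as a comparison for lists with a role in macrophages. Olfactory and vomeronasal receptors, expressed in sensory neurons of the nose, had 28 of 63 peaks (44.4%) at 2 or more and a median of 1.86. Olfr410 and Olfr806 nevertheless stood at 3.77 (3.01 to 4.73) and 3.14 (2.75 to 3.60), the first off repeats with 66.7 WT and 17.7 KO tags. The low median depended in part on the distance limit. Within 10 kb of a start site, the receptor peaks had a median of 2.31, against 2.49 for all genes. The share at 2 or more stayed lower, with 17 of 30 receptor peaks against 923 of 1295 peaks of all genes. Among the peaks within 100 kb were 5 of Vmn2r121, with 0 at 2 or more. Neuronal genes had 2 of 6 peaks at 2 or more, muscle genes 4 of 4 and lymphocyte genes 1 of 3, with medians of 1.59, 2.36 and 1.92. These numbers are too small to place them above or below the 69.6% of all peaks.

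**Figure D3:**
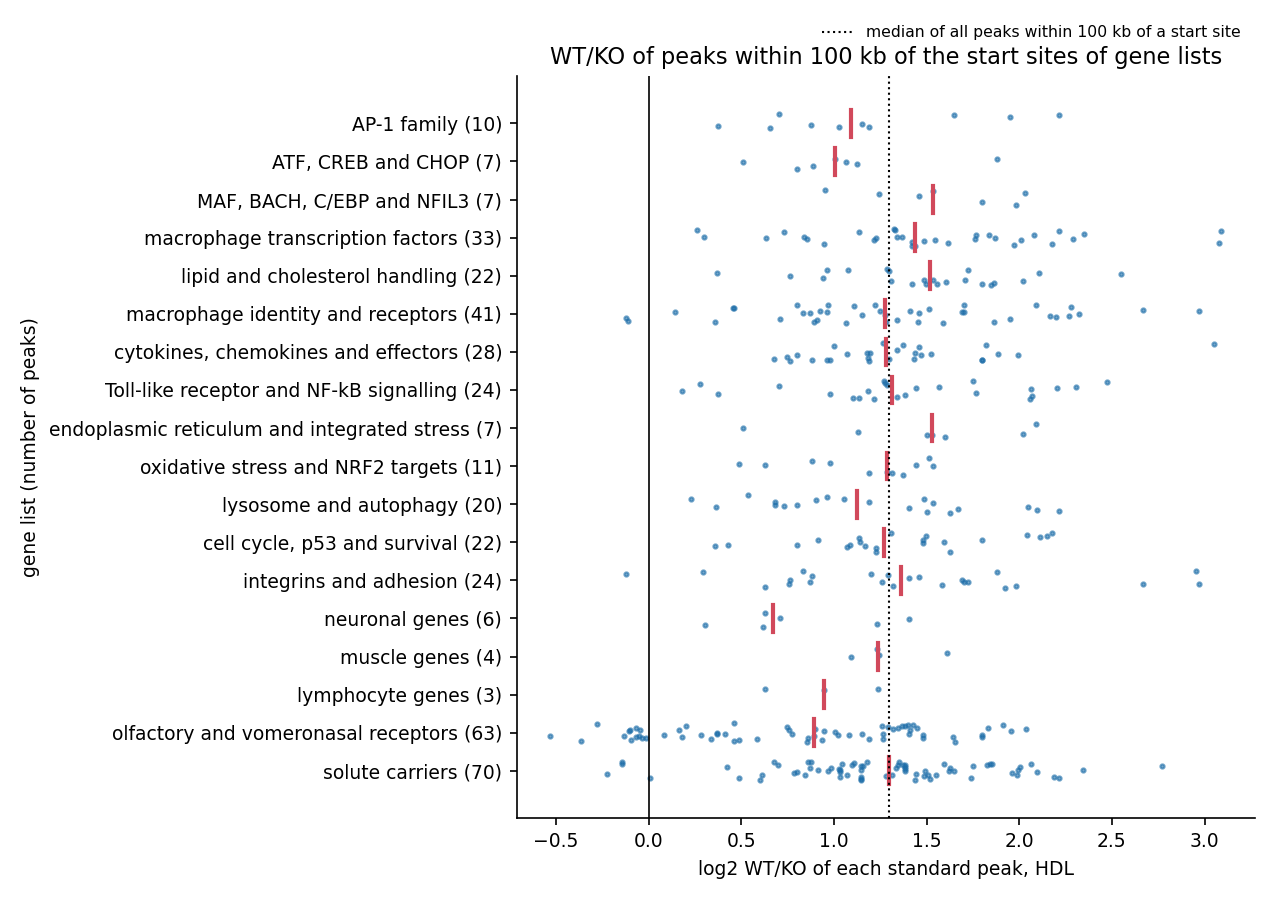
log2 WT/KO of each standard peak within 100 kb of a start site of 18 gene lists (blue points, jittered vertically; red bar, median; dotted line, median of all 3891 such peaks at a WT/KO of 2.46). Lipid handling and the macrophage transcription factors have medians to the right of the line, at 2.86 and 2.71. So have the smaller MAF, BACH, C/EBP and NFIL3 (2.90) and endoplasmic reticulum (2.88) lists. The olfactory and vomeronasal receptors have one to the left, at 1.86. Differences between lists were not tested.

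Some genes had several ATF3 peaks with different ratios. Gm19510, a predicted gene on chromosome 15, had 7 within 100 kb, 6 of them at 2 or more and all between 1.89 and 3.02. Runx1 had 6, from 1.23 in an intron to 4.23 at the upstream LTR, with the promoter at 2.34 (1.37 to 4.06). Among genes with 5 peaks, taken in alphabetical order, 1600002D24Rik had all 5 at 2.42 to 4.2, while Arhgap25, of a GTPase-activating protein of leukocytes, had 2 of 5 at 2 or more and a range of 1.29 to 2.64.

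The KOIN-corrected list of HDL-treated cells held no peak with a WT/KO under 2.003, as its construction requires. It overlapped 2919 standard peaks, whose median WT/KO was 2.99. A further 625 standard peaks reached 2 without a counterpart in it, and these were intermediate, at a median of 2.34 and with AP-1 in 13.6% (11.1 to 16.5), against 21.5% (20.1 to 23.0) of the peaks with a counterpart and 8.96% of those under 2. The corrected list had 125 peaks that the standard list lacked, at a median of 3.19. The highest scores among these were 3 peaks of G530011O06Rik, given above, and 3 on ribosomal RNA repeats near Rhou, with 17.7 to 19.5 WT and 4.54 to 6.66 KO tags and ratios of 2.93, 3.43 and 3.89.

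At sites found in several conditions, the excess of WT over KO tags was larger with HDL than without, and it differed by kind of site. Of the HDL standard peaks, 2006 (37.7%, and 72.2% of the unstimulated list) matched an unstimulated peak, with a median WT/KO of 2.22 with HDL and 1.59 without. The exact conditional test of the 4 read counts, Benjamini-Hochberg adjusted, called WT/KO higher with HDL at 384 sites (19.1%) and lower at 52 (2.59%). With HDL + CpG, 2378 peaks matched (44.7%, and 62.7% of that list), at medians of 2.26 with HDL and 1.16 with HDL + CpG, and 791 sites (33.3%) were higher with HDL and 64 (2.69%) lower. Scaled on satellite and simple repeat peaks together, the counts became 88 higher and 284 lower against unstimulated cells, and 149 and 944 against HDL + CpG, since simple repeats themselves differed between conditions. Scaled on satellites alone they were 549 and 16, and 785 and 68. With 1 library per genotype and condition, treatment and library cannot be told apart.

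Simple repeats accounted for 49.7% of the sites that were higher with HDL than with HDL + CpG, and off-repeat sites with AP-1 for 22 of these 791 sites. Of 603 shared simple repeat sites, 393 (65.2%) were higher with HDL and 2 lower, with medians of 2.46 and 0.982. Of 75 telomere-type sites 73 were higher with HDL. Off repeats, 239 of 1103 sites (21.7%) were higher with HDL and 45 lower. Split by sequence, off-repeat sites with AP-1 were higher at 22 of 282 and lower at 20, at medians of 2.63 and 2.78, whereas those without it were higher at 217 of 821 and lower at 25, at 2.40 and 1.48. Against unstimulated cells the order was the same, with 187 of 632 simple repeat sites higher with HDL and 1 lower, and 10 of 140 off-repeat AP-1 sites higher and 5 lower.

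At the 1527 sites with a peak in all conditions, the levels in each library show where the ratios moved. At the 89 off-repeat sites with AP-1, the median WT/KO was 2.41 unstimulated, 2.69 with HDL and 2.71 with HDL + CpG. At the 457 off-repeat sites without AP-1 it was 1.65, 2.27 and 1.13. At the 74 telomere-type sites it was 1.75, 2.97 and 1.02. The median WT tags there were 126 unstimulated, 152 with HDL and 98.1 with HDL + CpG, and the KO tags 73.7, 51.3 and 102, so that WT and KO tags moved in opposite directions between these libraries. At GA or TC repeats the KO tags followed the same order, 7.81, 5.75 and 10.9, with WT tags of 10.8, 13.4 and 9.5. At off-repeat AP-1 sites the KO tags were 4.90, 5.75 and 5.05. Satellites differed little, at ratios of 1.11, 0.981 and 0.976. Peak widths, which enter the tag counts, had medians of 937, 1029 and 966 bp at the telomere-type sites. KO libraries held 75534584, 66061648 and 47504605 reads in this order, and the part of depth in these shifts was not tested.

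**Figure D4:**
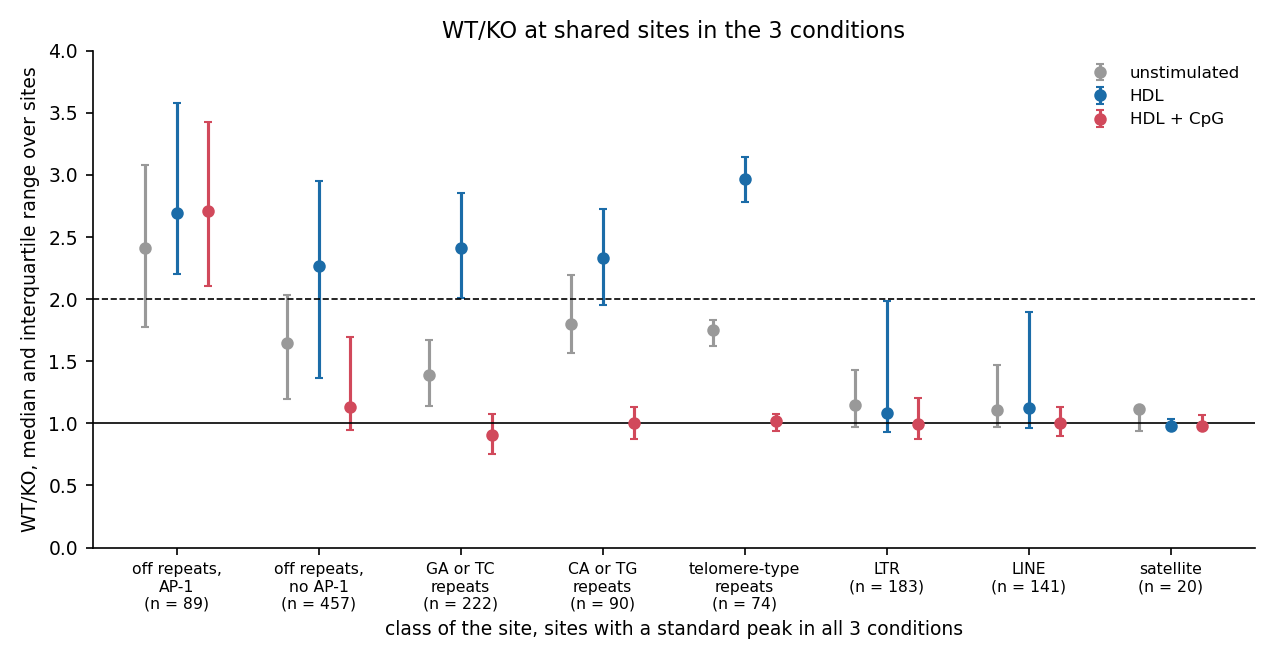
WT/KO at sites with a standard peak in all 3 conditions, by class of the site (points, medians; bars, interquartile ranges over sites; n in the axis labels; lines at 1 and 2). With HDL the simple repeats lie between 2.33 and 2.97, and with HDL + CpG between 0.905 and 1.02, while off-repeat sites with AP-1 keep medians of 2.41 to 2.71 in every condition.

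The 8 sites with the smallest p in the comparison with unstimulated cells all held 1151 or more WT reads with HDL. Satellite sites near 1700012B15Rik, Lrrc4c and 4933422A05Rik, and the LINE site at Lrrc4c, had ratios of 0.937 to 0.973 with HDL and 1.08 to 1.12 without, differences that 160120 or more WT reads each make detectable. The Chst2 site went the other way, with 785 WT and 206 KO tags with HDL and 619 and 346 without, hence 3.80 and 1.79. The G530011O06Rik site stood at 3.01 and 1.78 and the telomere-type site of Galnt5 at 3.46 and 1.78. At a ribosomal RNA repeat near Eif2s3y on chromosome Y, 303 WT and 67.8 KO tags with HDL and 271 and 168 without gave ratios of 4.47 and 1.61. At each of these 4 sites WT tags were higher and KO tags lower with HDL.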

How the data were processed

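Chromatin immunoprecipitation for ATF3 was sequenced in macrophages of 6 groups, of which the HDL-treated WT and KO groups are the subject here. The authors pooled the replicates, aligned the reads to mm9, kept the best position of reads with several matches, called peaks and annotated them with the nearest RefSeq start site (Bowtie 0.12.8, CASAVA 1.8, HOMER 4.3 and MACS 1.4.2 per the submitters' processing notes). The deposited signal is the tag count per peak in the WT and in the KO library, normalized by the authors to 10000000 tags. The deposited score is the MACS score. A column of the authors' WT/KO fold was not used, and neither was the list of barcodes.

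Reads were recovered as tags times the library total in the file headers, within 0.005 tags of a whole number for every value. WT/KO has an exact 95% interval. Reads were compared by two-sided exact binomial tests, and ratios between conditions by an exact conditional test of the 4 counts on sites paired by the largest overlap of at least 1 bp, both Benjamini-Hochberg adjusted over all peaks or sites and tested on simulated data. Shares have Wilson intervals, and differences of shares Newcombe intervals. A repeat is the one annotated at the peak centre. The 8 motifs were searched on both strands within 100 bp of the centre, and of these the MAF-type motif contains AP-1. The genome and starts are NCBIM37 with GENCODE annotation.

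Named peaks were all of Atf3, the 12 with the highest lower bound of WT/KO, the 10 with most WT tags, the 8 with the lowest upper bound, up to 5 highest-scoring genes of each list (the text gives a selection of these, and some are not reported here), the 10 highest-scoring promoters with a WT/KO of at least 2, the 6 genes with most peaks, the 6 highest-scoring corrected peaks without a standard peak and the 8 sites that differed most from unstimulated cells. Members and lists were chosen with earlier results of these data known. Computations used pandas 2.3.3 with numpy 2.4.6 in Python 3.11.15, statistics scipy 1.17.1, sequences samtools 1.23.1 and pysam 0.24.0, and plots matplotlib 3.10.9. Alternatives were score minimums of 60 and 100, autosomes alone, other scalings, merging within 1000 bp, 1 added tag, no low-complexity sequence, a 50 bp window, promoters within 1000 bp, an overlap of 50% and a limit of 10 kb.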

Additional observations from a re-analysis of the deposited data

Results flagged for a closer look

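The WT/KO of the pooled libraries differed between conditions, by the exact conditional test of reads, at 436 sites shared with unstimulated cells and at 855 sites shared with HDL + CpG cells. Among the 8 with the smallest p, the ratio of WT/KO with HDL to that in unstimulated cells was 0.839 at 1700012B15Rik, 0.890 and 0.874 at the Lrrc4c sites and 0.870 at 4933422A05Rik. It was 2.12 at Chst2, 1.70 at G530011O06Rik, 1.94 at Galnt5 and 2.77 at Eif2s3y.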

How the results depend on the processing

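No paired analysis was possible because each group is 1 pooled library, and for the same reason no replicate could be left out. Of the recomputed main values 38 kept their direction and size, 17 moved and 4 changed direction. With score minimums of 60 and 100, fewer peaks enter, and 1727 and 625 of them had a WT/KO of at least 2, 2042 and 719 more WT reads and, at 100, 27 more KO reads. At 100 the AP-1 share differed by 8.62 percentage points between peaks at or above and below 2, and the share at 2 or more by -21.2 points between all peaks off satellites, simple repeats and low complexity (LTR and LINE included) and those on satellites or simple repeats, for which the main value was -5.90 and that with 1 tag added -1.08. Against peaks with no annotated repeat at all, an alternative chosen after seeing the data, it was 2.54 (-0.451 to 5.61), so its sign depends on counting the other repeats. Scaled on satellite and simple repeat peaks, whose median is mostly that of the simple repeats (2.38 in HDL cells), 269 peaks reached 2, 366 had more WT and 734 more KO reads, the AP-1 difference was 6.23 points, the promoter difference 2.36 (-0.198 to 6.08) and the repeat difference was 3.49. The sites that differed between conditions numbered 372 against unstimulated and 1093 against HDL + CpG cells, most of them now lower with HDL (284 and 944). This scaling divides every ratio by the same value, so that list medians below 2.38 fall under 1 by construction, as for the AP-1 family (0.893), ATF, CREB and CHOP (0.842), lysosome (0.914), neuronal (0.668), muscle (0.989), lymphocyte (0.807) and olfactory (0.779) genes. The AP-1 difference was 15.6 points without satellites, simple repeats and low complexity and 6.44 with a window of 50 bp. Without these repeats and the block on chromosome X, an alternative chosen after seeing the data like the scaling on satellites alone, it was 15.03 points and 31 peaks had more KO reads. The cause of the other shifts was not tested.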
